A study of Mus musculus with 20 samples.

Results

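The hippocampal transcriptome of mice carrying melanoma in the skin was compared with that of tumour-free mice while both groups received only an isotype-matched control antibody. The comparison used the 5 libraries titled melanoma and the 5 titled control, 10 of the 20 libraries of the series, chosen by their titles. Every animal was an adult male wild-type mouse of 10 to 12 weeks. Control mice carried no tumour and were given the isotype antibody intraperitoneally. Melanoma mice were injected intradermally on both sides with 500000 D4M-3A.UV2 cells, a mouse melanoma line of the same strain background, were left for 1 week, and then had the same isotype antibody. The other 10 libraries came from mice treated with immune checkpoint inhibitors (ICI, anti-CTLA-4 at 1 mg 3 times a week with anti-PD-1 at 200 µg 2 times a week), 5 without and 5 with the tumour, and served here as a second, separate look at the tumour effect. Brains were collected 72 hours after the last injection, and 1 frozen hippocampus per mouse was sequenced in bulk. The tumour grew at a distance from the tissue measured, and no tumour size or blood value was used here.

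A tumour outside the brain can reach the brain through the blood: cytokines and metabolites act on the endothelial cells of the blood-brain barrier, and the adrenal glands release glucocorticoids under systemic stress. Glucocorticoids bind a nuclear receptor, encoded by Nr3c1, that is abundant in the hippocampus and induces a set of target genes by binding a palindromic DNA element. Barrier endothelium in turn is defined by tight junctions and by transporters such as Mfsd2a and Slc2a1.

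The 10 libraries held 22039606 to 25032254 counts, and 3.15 to 5.10% of these were mitochondrial. Scores, here the mean log2 CPM (each gene's share of the library, scaled as counts per 1000000) of a marker list, were present for the hippocampal fields in every library. They lay between 5.25 and 5.71 for field CA1, between 5.16 and 6.14 for field CA3 and between 3.60 and 5.86 for the dentate gyrus. Libraries that stood apart were seen in both groups. Control replicate 4 had a nuclear respiratory chain score of 7.32, against 6.50 to 6.66 in the other 9 libraries, and the highest share of mitochondrial counts. Melanoma replicates 1, 3 and 5 had striatum scores of 4.90, 6.13 and 5.33, against 2.76 to 3.39 in the other 7 libraries. Several results that rest on these libraries are given below with and without them. Choroid plexus scores ran from 1.09 to 6.65 in control and from 1.27 to 5.68 in melanoma, highest in melanoma replicate 4. All 14 choroid plexus markers were lower on average in melanoma (median -1.44), with 0 at an unadjusted p under 0.05. No harvest or extraction batch is given, and the numbers in the library names do not interleave between the groups, so a batch that follows them cannot be told apart from the tumour.

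No gene passed an adjusted p of 0.05 among 18427 tested (0%, edgeR quasi-likelihood test with Benjamini-Hochberg adjustment). At an unadjusted p under 0.05 there were 941 genes (5.11%), of which 497 were higher (2.70%) and 444 lower (2.41%) in melanoma. About 5% of genes are expected under that level by chance. DESeq2 called 6 of the 18064 genes it adjusted (0.0332%), namely Mfsd2a, Zswim6, Htr1b and Cdca7 higher and Sox18 and Fgfrl1 lower. Limma voom called 1 gene, Mfsd2a. In 0.554% of all genes every melanoma mouse lay above every control, and in 0.483% every one lay below. Descriptions below therefore concern differences that did not pass the main test. Their unadjusted p-values set each group difference against a spread estimated over all 20 libraries.

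**Figure D1:**
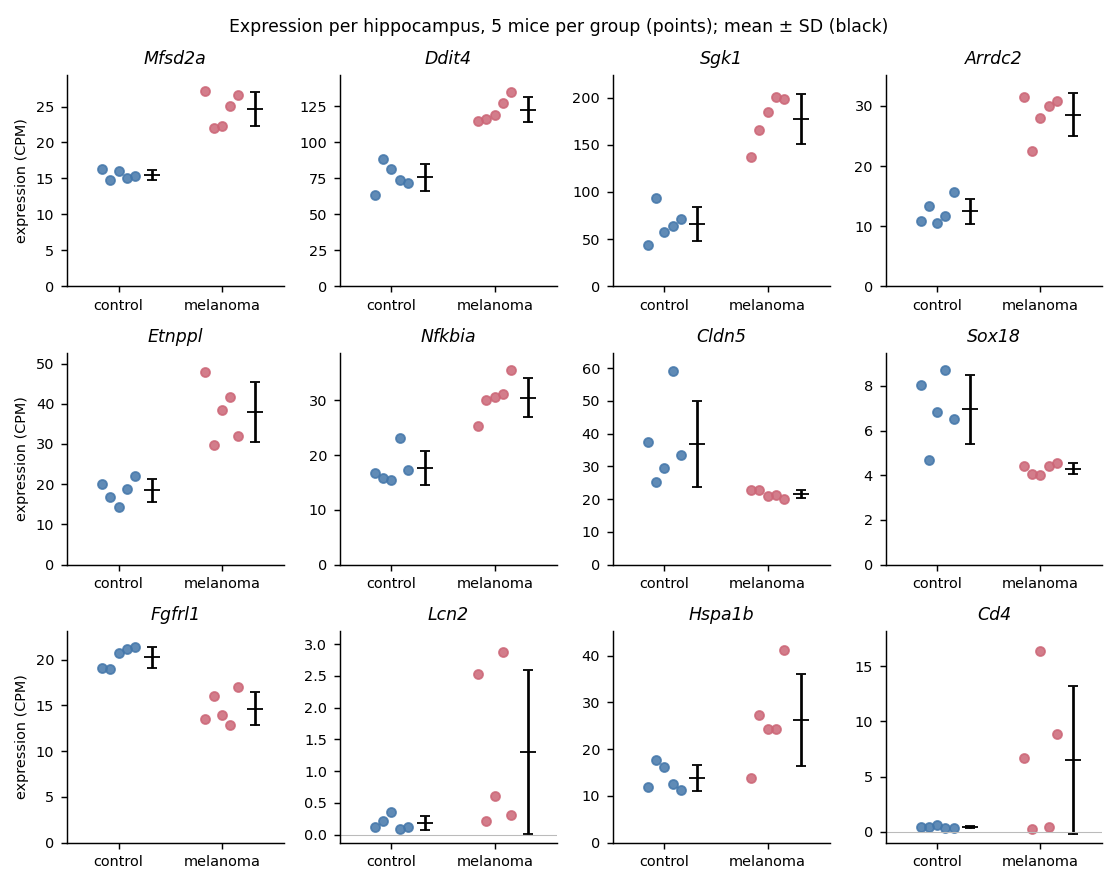
Expression of 12 genes in CPM (vertical axes, from 0) in control and melanoma hippocampi, 1 point per mouse in replicate order, with the mean ± SD in black. Mfsd2a, Ddit4, Sgk1, Arrdc2, Etnppl and Nfkbia were higher in all 5 melanoma mice than in any control, Cldn5, Sox18 and Fgfrl1 lower, and Lcn2, Hspa1b and Cd4 were high in some melanoma mice only.

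The gene with the smallest p was Mfsd2a (chr4:122946850-122961188, build GRCm38), the transporter that carries lysophosphatidylcholine with omega-3 fatty acids across the blood-brain barrier. Its level was 16.4, 14.7, 16, 15 and 15.3 CPM in control replicates 1 to 5 and 27.2, 22.1, 22.3, 25.1 and 26.6 CPM in melanoma replicates 1 to 5. The groups did not overlap, and the 5 control mice lay within a narrow range. The means were 15.5 ± 0.695 and 24.6 ± 2.36 CPM (SD, n = 5), a 1.59-fold higher level in melanoma, or 0.67 on the log2 scale (SE 0.12, adjusted p = 0.269 in edgeR). Over the 21 alternative analyses the log2 fold change stayed between 0.60 and 0.70, while the adjusted p ran from 0.00295 with DESeq2 to 0.999, and 3 alternatives passed. Slc2a1, the glucose transporter of barrier endothelium and astrocytes, was also higher in each melanoma mouse than in any control, at 101.5, 110.3, 97.4, 103.5 and 125 CPM in control and 161, 133, 141, 139 and 156 CPM in melanoma (log2 fold change 0.44, SE 0.19, adjusted p = 0.877 in edgeR). Slc40a1, the iron exporter ferroportin, was lower on average (9.47 ± 1.46 against 7.73 ± 1.14 CPM). Of 25 tested barrier transport genes these 3 had an unadjusted p under 0.05, 2 higher (2.70% of all genes) and 1 lower (2.41%), and the median log2 fold change of the list was 0.06, against -0.01 over all tested genes. It was -0.0007 without control replicate 4 and 0.11 without control replicate 2.

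Most genes of endothelial identity went the other way. Sox18, a transcription factor of endothelial cells, stood at 8.03, 4.68, 6.83, 8.72 and 6.52 CPM in control and 4.42, 4.05, 4.03, 4.41 and 4.56 CPM in melanoma. The groups did not overlap, control replicate 2 lay closest to the melanoma mice, and the log2 fold change was -0.70 (SE 0.13, adjusted p = 0.269 in edgeR). Without that control library the adjusted p was 0.018 in edgeR, within 0.00505 to 0.999 over the alternatives. Cldn5, the main tight junction protein of brain endothelium, stood at 37.5, 25.1, 29.4, 59.1 and 33.3 CPM in control and 22.8, 22.8, 21, 21.2 and 19.9 CPM in melanoma. Its melanoma values were close together and below every control value, and the highest control was replicate 4. The log2 fold change was -0.78 (SE 0.18, adjusted p = 0.642 in edgeR), and -0.55 without control replicate 4. Among 27 endothelial identity and junction genes, 19 were lower and 6 of them had an unadjusted p under 0.05 (against 2.41% of all genes), with 0 in the other direction. Besides Sox18 and Cldn5 these were Plvap, Lsr, Foxq1 and Pecam1. Another 8 members were higher, and summed counts were 2303 in control and 2805 in melanoma for Ly6c1 and 7880 and 8405 for Flt1. The median of the list was -0.16, and -0.24 without control replicate 4.

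For part of the list the count itself is uncertain, because strand use in the counting is not given in the sources used here. Plvap (log2 fold change -0.54) overlaps other genes whose counts come to 349% of its own, and for Lsr (-0.40) the share is 155%. Pecam1, an adhesion molecule of endothelial cells without such overlap, averaged 21.2 ± 2.25 CPM in control and 18 ± 2.55 CPM in melanoma, with overlapping values. Egfl7, a secreted endothelial protein, and Bsg, which is abundant in barrier endothelium and chaperones monocarboxylate transporters, were also among the 12 leading lower genes. Egfl7 averaged 26.6 ± 4.98 and 20.6 ± 1.27 CPM, and Bsg 474 ± 58.3 and 350.1 ± 51.9 CPM. The difference of Bsg went from -0.44 to -0.29 with 4 tissue scores as covariates, choroid plexus among them, while Sox18 was at -0.68 and Cldn5 at -0.65 with them. In bulk tissue, fewer endothelial cells, less RNA per endothelial cell and a different share of choroid plexus cannot be told apart. Of 16 pericyte and smooth muscle genes, 12 were lower, 2 of them at an unadjusted p under 0.05 (2.41% of all genes): Rgs5, a pericyte marker, at 83.1 ± 6.01 against 72.2 ± 6.22 CPM, and Des, the intermediate filament of mural cells, at 2.52 ± 0.503 against 1.72 ± 0.564 CPM.

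Of 16 endothelial activation genes 10 were higher, with a median of 0.12, which was 0.33 without control replicate 1. The score of the list was 1.71 ± 0.169 in control and 2.03 ± 0.159 in melanoma (SD, n = 5), and 4 of 5 melanoma mice lay above the highest control at 1.93. At an unadjusted p under 0.05 there were 2 higher (2.70% of all genes), Lcn2 and Hif3a, and 1 lower (2.41%), Vegfa. Hif3a, a hypoxia-inducible factor subunit that is also a glucocorticoid-responsive gene, was at 7.64, 7.27, 8.57, 4.47 and 11.1 CPM in control and 25.1, 12.6, 12.6, 13.8 and 15.8 CPM in melanoma, without overlap and highest in melanoma replicate 1. Vegfa, the growth factor for vessels, was lower at 82.8 ± 8.47 against 71 ± 8.12 CPM, with overlap. Lcn2, an acute-phase protein made by endothelium and glia under inflammation, was measured at 0.118, 0.213, 0.364, 0.0922 and 0.123 CPM in control and 2.52, 0.213, 0.607, 2.88 and 0.304 CPM in melanoma. Melanoma replicates 1 and 4 stood far above all controls, while replicates 2 and 5 lay within the control range. Its summed count was 21 over the 5 control libraries and 154 over the 5 melanoma libraries, and the log2 fold change was 2.82 (SE 0.99, adjusted p = 0.813 in edgeR).

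Glucocorticoid-responsive genes were higher together. Of 32 tested members 27 were higher in melanoma, 16 of them at an unadjusted p under 0.05 (against 2.70% of all tested genes), and 0 were lower at that level. For 12 members the groups did not overlap, all of them higher (0.554% of all genes). The median log2 fold change was 0.43, against -0.01 over all genes, and 0 members passed the adjusted threshold in edgeR. The score of the list lay between 4.52 and 4.98 in control mice and between 5.08 and 5.45 in melanoma mice. This list and its direction were known from earlier work on these data, so the count describes the mice and is not independent evidence.

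The promoter windows of 2 members hold letters of the element that the receptor binds. Windows of 250 bases before annotated starts (RefSeq, GRCm38.p6) were searched on both strands for the palindrome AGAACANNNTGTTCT, where N is any base. It occurred in 3 of 32851 windows (0.00913%), and 1 of these lay before a RefSeq start of Sgk1. The shorter form AGAACANNNTGT, which is contained in the palindrome, occurred in 121 windows (0.368%), and among the 28 members with a window it was found in Sgk1 and Fam107a. The sequences below are printed 5′ to 3′ on the gene's strand, with the match in capitals (in Fam107a as its reverse complement), because these are the members in which these letters were found.
Sgk1, chr10:21993640-21993889, plus strand: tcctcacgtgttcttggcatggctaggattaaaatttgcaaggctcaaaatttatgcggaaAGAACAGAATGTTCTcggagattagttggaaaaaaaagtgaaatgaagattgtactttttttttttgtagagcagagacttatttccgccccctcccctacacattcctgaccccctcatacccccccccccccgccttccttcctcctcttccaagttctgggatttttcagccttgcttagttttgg
Fam107a, chr14:8309780-8310029, minus strand: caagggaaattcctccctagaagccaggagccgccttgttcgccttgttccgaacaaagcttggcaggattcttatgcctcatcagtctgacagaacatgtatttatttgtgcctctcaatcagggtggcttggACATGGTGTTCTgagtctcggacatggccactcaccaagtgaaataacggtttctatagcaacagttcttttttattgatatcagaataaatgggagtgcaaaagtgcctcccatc
The match in Sgk1 ended 174 bases before the end of its window, which is the base before the annotated start. The half-site TGTTCT alone was in 16.1% of all windows and in 9 of the 44 member windows, which belonged to 6 of the 28 members (Bcl6, Fam107a, Il1r1, Sgk1, Sult1a1 and Tsc22d3). A match describes letters in these windows and not binding.

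Sgk1 (chr10:21882184-21999903), a kinase named for its induction by serum and glucocorticoids, was at 44, 93.2, 57.6, 63.5 and 71.3 CPM in control and 138, 165, 185, 200.2 and 199 CPM in melanoma. All melanoma values exceeded all control values, and the log2 fold change was 1.43 (SE 0.40, a 2.69-fold difference, adjusted p = 0.642 in edgeR). Fitted on the 10 libraries alone, Sgk1 passed with an adjusted p of 0.0482 in edgeR, the lowest of its alternatives, which reached 0.999. Fam107a, an actin-binding protein induced by stress hormones, was at 272, 280.1, 294, 255 and 305 CPM in control and 389, 344, 324, 346 and 343 CPM in melanoma. Its groups did not overlap either, with a smaller log2 fold change of 0.31 (SE 0.12).

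The next members were picked for their roles after their values were seen. Ddit4, an inhibitor of the growth kinase mTORC1, was at 63.5, 88.2, 81.7, 73.5 and 71.6 CPM in control and 114, 116, 119, 128 and 135 CPM in melanoma (log2 fold change 0.69, SE 0.17, adjusted p = 0.642 in edgeR). Tsc22d3, known as GILZ and a mediator of anti-inflammatory glucocorticoid action, was at 56.4, 45.1, 51.1, 79.4 and 66 CPM in control and 96.6, 98.7, 92, 89.2 and 101 CPM in melanoma. For both genes every melanoma mouse was above every control. Nfkbia, the inhibitor of NF-κB, averaged 17.7 ± 3.1 and 30.5 ± 3.61 CPM, and Errfi1, an inhibitor of EGF receptor signalling, 35.5 ± 3.6 and 48.2 ± 6.59 CPM. Neither overlapped between groups. Dusp1, a phosphatase of MAP kinases, averaged 34.9 ± 14.2 and 41.2 ± 11.2 CPM (log2 fold change 0.24, SE 0.36).

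Other members of the list differed in how far they separated the groups. Arrdc2, an arrestin-domain protein, was at 10.9, 13.4, 10.6, 11.7 and 15.6 CPM in control and 31.4, 22.6, 27.9, 29.9 and 30.8 CPM in melanoma, a 2.29-fold difference without overlap (log2 fold change 1.20, adjusted p = 0.642 in edgeR, and 0.0337 on the 10 libraries alone, the lowest of alternatives that reached 0.999). Klf15, a transcription factor of amino acid and lipid metabolism, averaged 24.7 ± 2.46 and 34.4 ± 2.75 CPM. Pdk4, which restrains glucose oxidation, averaged 11 ± 1.45 and 15.9 ± 2.48 CPM with 1 overlapping pair of values. Plin4, a lipid droplet coat protein, had a log2 fold change of 1.82, but genes overlapping its position have 872% of its own count, and its melanoma replicate 1 was far above the rest. Sult1a1, a sulfotransferase, had 0.66 with an overlap of 125%. Outside the list, Etnppl, an astrocyte enzyme that degrades phosphoethanolamine, was at 20.1, 16.8, 14.3, 18.9 and 21.9 CPM in control and 48, 29.6, 38.3, 41.6 and 31.9 CPM in melanoma, without overlap (log2 fold change 1.04, SE 0.25, adjusted p = 0.642 in edgeR).

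Other well-known members did not separate the groups. Fkbp5, a receptor co-chaperone, averaged 64.5 ± 13.8 and 79.2 ± 17 CPM, with overlapping values. Klf9 was at 149 ± 31.7 and 152 ± 13.4 CPM and Mt1, a metallothionein, at 119.5 ± 32.5 and 134 ± 10.7 CPM. The mineralocorticoid receptor gene Nr3c2 had a log2 fold change of -0.16 (SE 0.32) and the glucocorticoid receptor gene Nr3c1 one of -0.07 (SE 0.10). The list count was 15 to 17 when any 1 control or melanoma library was left out and 20 with 4 tissue scores as covariates. It was 7 when melanoma replicates 1, 3 and 5 were left out, where 2 melanoma mice remained and the list median was still positive, within 0.32 to 0.51 over all alternatives.

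**Figure D2:**
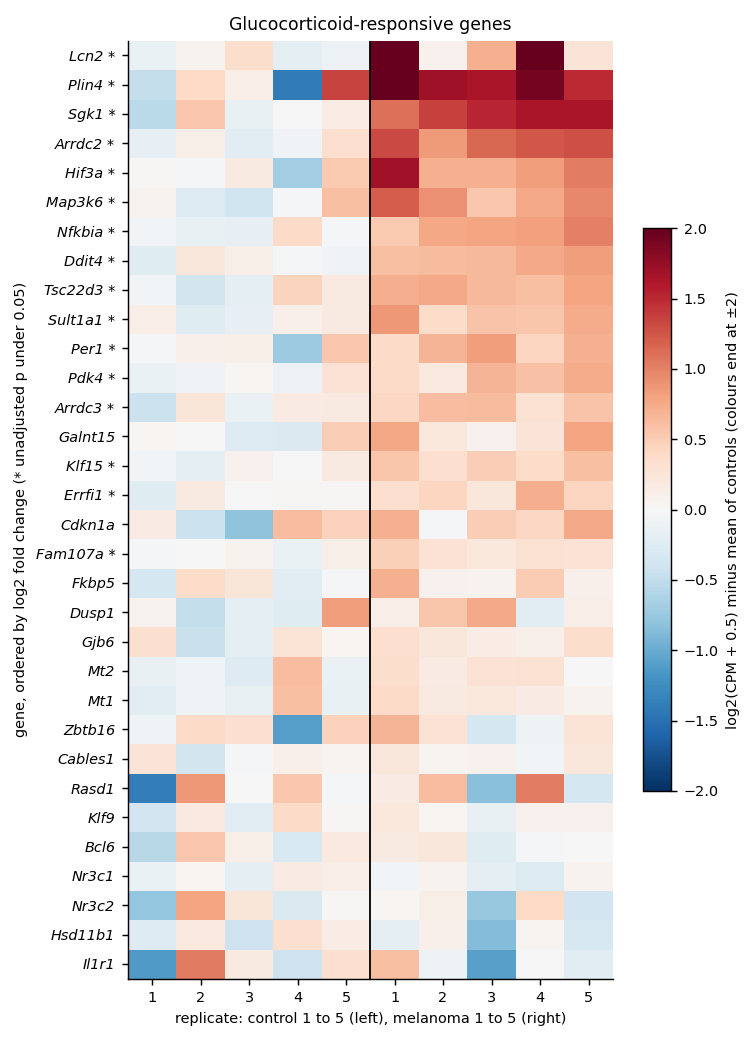
Each row is 1 of the 32 glucocorticoid-responsive genes and each column 1 mouse, with colour showing log2(CPM + 0.5) minus the mean of the 5 controls. Red prevails in all 5 melanoma columns for the upper rows, where 16 genes carry a star for an unadjusted p under 0.05, and the lowest rows show no separation.

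The clock and immediate early gene lists share Per1 with the glucocorticoid list. Per1, a clock gene that is itself induced by glucocorticoids and by neuronal activity, averaged 118 ± 34.6 and 175 ± 23.1 CPM. Per2 was at 46, 53.8, 50.6, 24 and 59.7 CPM in control and 67, 63.9, 69.4, 67.7 and 76.4 CPM in melanoma. Ciart, a repressor of the clock, averaged 13.9 ± 2.36 and 21.1 ± 2.34 CPM, and Arntl, the activator that Per proteins oppose, 32.3 ± 2.88 and 26.9 ± 1.72 CPM. The groups did not overlap for Per2, Ciart and Arntl, which was the case for 0.554% of all genes in the higher and 0.483% in the lower direction. Of 22 clock genes 4 had an unadjusted p under 0.05, 3 higher (2.70% of all genes) and Arntl lower (2.41%). The labels used here give no hour of harvest, so a difference in time of day between the groups cannot be told apart from the tumour. Among 30 immediate early genes 23 were higher with a median of 0.26, and 3 had an unadjusted p under 0.05 (2.70% of all genes): Fosb (16.2 ± 4.48 against 29.6 ± 8.12 CPM), Sik1 (18.1 ± 5.76 against 27.6 ± 7.11 CPM) and Per1. Hspa1b, an inducible HSP70 chaperone, was above all controls in 4 of 5 melanoma mice, at 11.9, 17.6, 16.1, 12.5 and 11.4 CPM in control and 13.9, 27.3, 24.2, 24.3 and 41.2 CPM in melanoma. Its near-identical copy Hspa1a had a log2 fold change of 0.83 against 0.91, and reads of the pair may have been split between them.

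Most genes of the microglial lists were lower on average in melanoma. Of 24 homeostatic microglia genes 19 were lower, 6 of them at an unadjusted p under 0.05 (against 2.41% of all genes), with a median of -0.13. Olfml3 averaged 17.5 ± 2.8 and 13.5 ± 1.81 CPM, Fcrls 20.7 ± 3.37 and 16.9 ± 1.6 CPM, and the purinergic receptor gene P2ry12 25.6 ± 4.41 and 21.5 ± 1.29 CPM. The other 3 were Siglech (10.8 ± 0.911 and 9.28 ± 0.644 CPM), Ltc4s (5.11 ± 3.24 and 2.58 ± 1.12 CPM) and Gpr34, which overlaps genes whose counts come to 918% of its own. Another 5 members were higher, and summed counts were 9520 in control and 9964 in melanoma for Csf1r and 5432 and 6389 for Mertk. Groups overlapped for every member, and control replicate 4 was the highest control for Olfml3, Fcrls and P2ry12. The count was 4 without that library, 3 without control replicate 2 or without melanoma replicate 1, 3 with tissue scores as covariates and 1 without melanoma replicates 1, 3 and 5. Among 22 reactive microglia and lysosome genes 16 were lower and 4 of them had an unadjusted p under 0.05 (2.41% of all genes). These were the protease genes Ctsd (218 ± 35.6 against 166 ± 21.9 CPM) and Ctsl (75.7 ± 10.5 against 62.7 ± 5.53 CPM), with Cd63 (93 ± 16.9 against 68 ± 11.8 CPM) and Gpnmb (6.2 ± 3.35 against 3.64 ± 0.848 CPM). Choroid plexus markers were lower as well (median -1.44), and the part of that tissue alone in these 4 genes was not tested. Another 6 members were higher, and Spp1 had summed counts of 859 in control and 1251 in melanoma. Gm2a and Glmp, both lysosomal, were among the leading lower genes, at log2 fold changes of -0.26 and -0.30. Aif1, which encodes the microglial marker IBA1, was at 3.23 ± 1.08 CPM in control and 3.21 ± 0.389 CPM in melanoma.

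Among inflammatory lists, counts are set against the 2.70% of all genes that were higher and the 2.41% that were lower at an unadjusted p under 0.05. None of 20 complement genes had an unadjusted p under 0.05 in edgeR, and the median was -0.09 (-0.15 to -0.02 without single libraries). Of 24 type I interferon genes 17 were higher, and 1 had an unadjusted p under 0.05, Irf9 (log2 fold change 0.31), which overlaps genes whose counts come to 234% of its own. Of 24 antigen presentation genes 20 were lower, with Psmb9 and Tap2 at an unadjusted p under 0.05. Of 20 T cell genes 5 had enough counts to be tested. Among 21 acute-phase and inflammatory genes, Lcn2, Nfkbia, Osmr and Tnfaip3 were higher (2.70% of all genes) and Cxcl12 lower (2.41%) at that level, and 2 members did not overlap between groups, both higher (0.554% of all genes). Osmr, the oncostatin M receptor, was at 5.68, 5.36, 5.61, 2.77 and 6.03 CPM in control and 8.83, 7.81, 7.19, 7.68 and 7.94 CPM in melanoma, without overlap. Gfap, the astrocyte filament gene, was at 347 ± 56.9 CPM in control and 319.5 ± 48.4 CPM in melanoma (log2 fold change -0.12, SE 0.16), and 0 of 20 homeostatic astrocyte genes had an unadjusted p under 0.05.

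No member of the excitatory synapse (23), presynaptic vesicle (23), inhibitory neuron (21) and myelin (24) lists had an unadjusted p under 0.05 in edgeR. Of 24 myelin genes 19 were higher with a median of 0.15, which ran from 0.02 without control replicate 1 to 0.29 without control replicate 5. Mal, a myelin membrane protein, averaged 209 ± 79.9 and 288 ± 42.1 CPM with overlap. The growth factor gene Bdnf was at 29.4, 55.4, 38.5, 56.4 and 43.5 CPM in control and 31.6, 38.9, 22.1, 38.8 and 30.5 CPM in melanoma, with overlap. Its log2 fold change was -0.46 (SE 0.25), and -0.59 to -0.12 over the alternatives. Of 12 dentate gyrus markers 9 were lower, 1 at an unadjusted p under 0.05 (2.41% of all genes), with a median of -0.50. Their part in the difference of Bdnf was not tested. Nuclear respiratory chain genes were lower in 29 of 30 cases with a median of -0.20, which became -0.01 without control replicate 4. For the 15 genes of the mitochondrial genome, all lower, the median moved from -0.21 to -0.04 without that library.

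**Figure D3:**
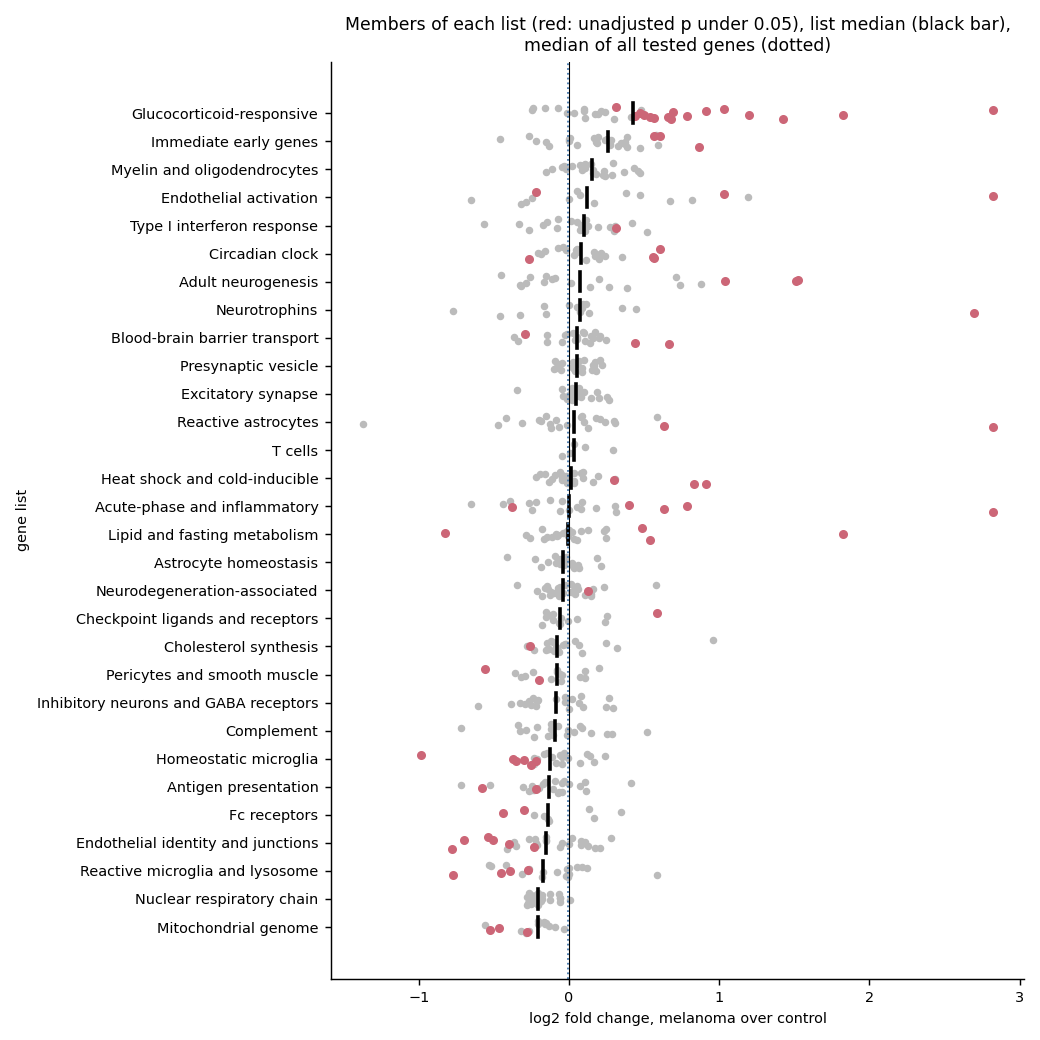
Log2 fold change of melanoma over control (horizontal axis) for each tested member of 30 gene lists, ordered by list median (black bar), with members at an unadjusted p under 0.05 in red and the median of all tested genes dotted. Glucocorticoid-responsive genes have the highest median, 0.43, and the genes of the mitochondrial genome the lowest, -0.21, and a gene such as Lcn2 appears in several lists.

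Further leading genes covered other functions. Fgfrl1, an FGF receptor family member without a kinase domain, was at 19.1, 19, 20.7, 21.2 and 21.4 CPM in control and 13.5, 16, 13.9, 12.8 and 17.1 CPM in melanoma, without overlap (log2 fold change -0.47, SE 0.09, adjusted p = 0.269 in edgeR, and 0.00505 to 0.999 over the alternatives). Pptc7, a mitochondrial phosphatase, averaged 51.1 ± 4.83 and 63.5 ± 3.3 CPM, and Kdm3a, a histone demethylase, 36.6 ± 3.35 and 49.6 ± 6.89 CPM, both without overlap. Ccnd2, a cyclin, averaged 86.9 ± 12 and 116 ± 15.1 CPM. On the lower side Tril, an accessory protein of Toll-like receptor signalling, averaged 50.9 ± 6.32 and 40.8 ± 2.21 CPM, and Etv4, an Ets transcription factor, 12.1 ± 1.64 and 9.19 ± 0.713 CPM. Gstt2, a glutathione transferase, averaged 2.46 ± 0.55 and 1.44 ± 0.221 CPM, Pkdcc, a secreted kinase, 15.9 ± 1.36 and 12.2 ± 1.41 CPM, and Smco4 2.98 ± 0.294 and 1.87 ± 0.396 CPM.

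Of 26 lipid and fasting genes 12 were higher, with a median of -0.01 (-0.06 to 0.01 without single libraries). Txnip, which limits glucose uptake, averaged 24.7 ± 1.86 and 34.5 ± 5.27 CPM, and Fabp7, a fatty acid carrier of astrocytes and progenitors, 19.1 ± 6.87 and 10.8 ± 2.12 CPM, with overlap. Of 23 cholesterol synthesis genes 17 were lower with a median of -0.08 (-0.16 to -0.05 without single libraries), and Nsdhl (20.2 ± 2.88 against 16.9 ± 0.736 CPM) had an unadjusted p under 0.05 (2.41% of all genes were lower at that level). Of 6 tested markers of border macrophages and neutrophils 4 were higher, 2 of them at an unadjusted p under 0.05 (2.70% of all genes): the scavenger receptor gene Cd163 (1.47 ± 0.733 and 2.83 ± 1.34 CPM) and Lyve1 (0.641 ± 0.381 and 1.14 ± 0.263 CPM). Mrc1, the mannose receptor gene of these macrophages, had summed counts of 393 and 370, and Pf4 had 51 and 51. Of 14 tested checkpoint ligand and receptor genes 10 were lower, with a median of -0.06 (-0.09 to 0.02 without single libraries). For 1 member the groups did not overlap, in the lower direction (0.483% of all genes). The 1 member at an unadjusted p under 0.05 was Btla, which was higher (2.70% of all genes), at 0.409 ± 0.0495 and 0.617 ± 0.208 CPM.

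Several leading genes were high in the 3 melanoma libraries with a high striatum score. All 14 striatum markers were higher in melanoma, 13 at an unadjusted p under 0.05 (2.70% of all genes), with a median of 1.96, and for 0 the groups did not overlap (0.554% of all genes). Adora2a, the adenosine receptor of striatal projection neurons, was at 2.59, 2.34, 2.96, 2.67 and 2.09 CPM in control and 22.4, 2.73, 65.8, 1.74 and 31.8 CPM in melanoma, so that replicates 1, 3 and 5 were high and replicates 2 and 4 were at the control level. Cd4, in the immune system the co-receptor of helper T cells, showed the same order at 0.392, 0.425, 0.592, 0.369 and 0.328 CPM in control and 6.64, 0.256, 16.3, 0.424 and 8.86 CPM in melanoma. Without melanoma replicates 1, 3 and 5 its log2 fold change went from 3.93 to -0.30, and 0 of 14 striatum markers remained at an unadjusted p under 0.05. Rarb, the retinoic acid receptor that belongs to that marker list, went from 1.39 to -0.01.

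Zswim6, Htr1b, Cdca7 and Ptprv, also leading genes, were highest in the same 3 libraries, and their differences without them were 0.42, 0.36, 0.32 and 0.82. Htr1b, a serotonin receptor, was at 8.7, 8.76, 6.38, 8.95 and 5.99 CPM in control and 13.7, 10.2, 18.6, 9.76 and 15.7 CPM in melanoma. The differences of Mfsd2a (0.60), Sgk1 (1.47), Arrdc2 (1.08), Sox18 (-0.72) and Cldn5 (-0.75) without the 3 libraries were close to those with them, although none passed an adjusted p of 0.05 in edgeR with 2 melanoma mice.

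**Figure D4:**
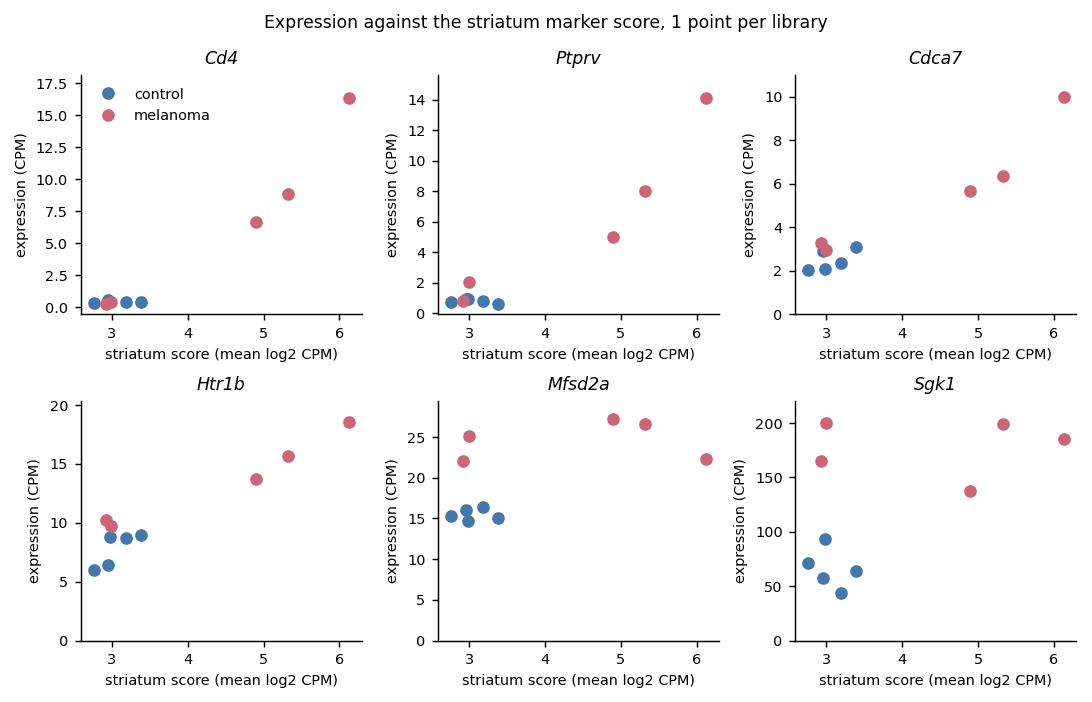
Expression of 6 genes in CPM (vertical axes) against the striatum score, the mean log2 CPM of 14 markers (horizontal axes), with 1 point per mouse, control in blue and melanoma in red. Cd4, Ptprv, Cdca7 and Htr1b are highest in the 3 melanoma mice with scores of 4.90 or more, whereas Mfsd2a and Sgk1 are high also in the 2 melanoma mice at the control score.

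The tumour effect could be viewed a second time in the ICI-treated mice, in libraries not shared with the first comparison. Of the 12 leading higher genes 7 were also higher in melanoma plus ICI than in ICI alone, and 1 of them, Rarb, had an unadjusted p under 0.05, a level reached by 8.63% of all genes in that comparison. Rarb is a striatum marker, and in that arm melanoma plus ICI replicate 3, the highest for Rarb at 15.6 CPM, had a striatum score of 4.98 and a field CA1 score of 4.17. The part of that library in the result was not tested. The level of 0.05 was reached by 4.12% of all genes in the higher and 4.51% in the lower direction. Of the 12 leading lower genes 0 were lower there, and 7 were higher at an unadjusted p under 0.05. With 4 tissue scores as covariates 1 was lower and 3 were higher at that level. Choroid plexus markers turned in the same way, from 14 of 14 lower (median -1.44) under isotype antibody to 14 of 14 higher (median 1.34) with tumour under ICI. Over all tested genes 36.2% had the same sign in both comparisons, and 49.2% without control replicate 4, whereas the leading lower genes kept 0 of 12 without it. Mfsd2a averaged 16.7 ± 1.11 CPM under ICI without tumour and 17.4 ± 4.23 CPM with it, and the difference of the melanoma effect between the antibody arms was -0.61 on the log2 scale (adjusted p = 0.372 in edgeR). Cldn5 averaged 23.4 ± 3.07 and 33.7 ± 6.74 CPM there, a log2 fold change of 0.53, opposite in sign to -0.78 under isotype antibody, with a difference of 1.30 (adjusted p = 0.253 in edgeR). Of the 27 endothelial identity genes 25 were higher with tumour in the ICI arm, 6 of them at an unadjusted p under 0.05 with 1 lower at that level, and the median was 0.20, against -0.16 under isotype antibody. Of the 16 endothelial activation genes 14 were higher there, 7 at an unadjusted p under 0.05, with a median of 0.66, against 0.12 under isotype antibody (0.33 without control replicate 1). Markers of meninges and fibroblasts were higher there in 15 of 15 cases, 10 at an unadjusted p under 0.05, with a median of 1.02, against -0.06 under isotype antibody. Neocortex markers were higher there in 12 of 12 cases, 4 at that level, with a median of 0.50, against -0.23 under isotype antibody. Dentate gyrus markers were higher in 0 of 12 cases, with 8 lower at that level and a median of -0.85, against -0.50. Of 9 field CA1 markers 3 were lower at that level, with a median of -0.60, against -0.04. Of the 22 reactive microglia and lysosome genes 17 were higher there, 7 at an unadjusted p under 0.05, with a median of 0.22. Under isotype antibody the median was -0.18 (-0.23 to -0.10 without single libraries). Of the 24 homeostatic microglia genes 16 were higher there, 0 at that level, with a median of 0.07, against -0.13. The difference between arms was not tested for these lists, nor was the part of the meningeal, choroid plexus, neocortex and hippocampal field markers in it.

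No gene passed an adjusted p of 0.05 for that difference (0% in edgeR, and 10.3% at an unadjusted p under 0.05). Of the 24 leading genes 22 had an unadjusted p under 0.05 for it, which the choice of genes on the control and melanoma libraries favours. Glucocorticoid-responsive genes were higher in 21 of 32 cases in the ICI arm with a median of 0.10, 3 higher and 3 lower at an unadjusted p under 0.05. Their score ran from 4.38 to 5.35 in melanoma plus ICI, a range wider than in any other group, and from 4.58 to 4.92 in ICI. Sgk1 averaged 72.8 ± 26.5 CPM under ICI without tumour and 111.9 ± 91.8 CPM with it, and its difference between arms was -0.81 (adjusted p = 0.529 in edgeR). Lcn2 was higher on average with tumour in both arms, at counts near the floor. Its log2 fold change was 4.15 under ICI, from summed counts of 7 without and 146 with tumour. The difference between arms was 1.33 (adjusted p = 0.718 in edgeR). Under isotype antibody melanoma replicates 1 and 4 stood far above the controls, while replicates 2 and 5 lay within their range.

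**Figure D5:**
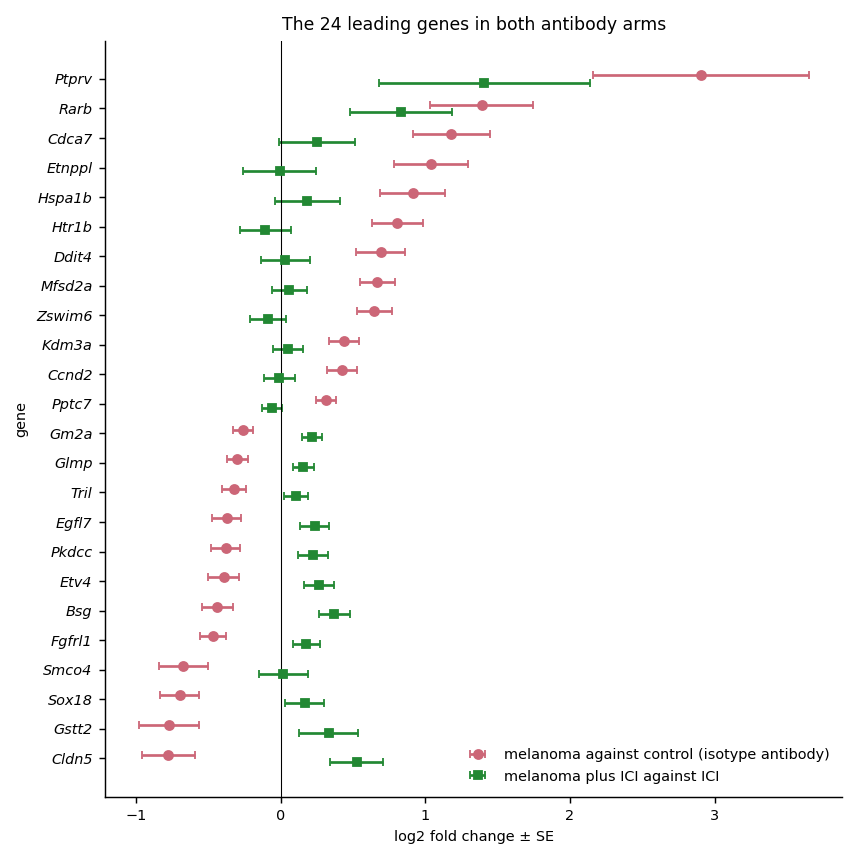
Log2 fold change ± SE (horizontal axis) of the 24 leading genes for melanoma against control under isotype antibody (red circles) and for melanoma plus ICI against ICI (green squares). All 12 lower genes lie right of 0 in the ICI arm, and 7 of the 12 higher genes lie right of 0 there.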

How the data were processed

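Hippocampal total RNA of 20 mice was sequenced in bulk. The authors deposited 1 table of raw counts per library, whole numbers for 49671 genes with coordinates. Per the submitters' processing notes STAR 2.5.2b and DESeq2 1.16.1 were used, and the counter, its strand setting and the genome build are not given in the sources used here. Coordinates matched GENCODE M21 (GRCm38) for 45214 genes, and its symbols were used. Totals were 22039606 to 25032254 per library in the 10 compared, which limits precision for genes under about 1 CPM.

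Genes were filtered by filterByExpr (minimum count 10, minimum total 15), leaving 18427, and scaled by TMM. The test was edgeR 4.0.16 (R 4.3.3), quasi-likelihood with robust estimation over all 20 libraries with 1 mean per group, 16 residual degrees of freedom and Benjamini-Hochberg adjustment at 0.05. CPM are per TMM-scaled library, and log2 CPM used a prior count of 2. The code was tested on simulated data. Alternatives were DESeq2 1.42.0, limma 3.58.1 voom, sva 3.50.0, other filters and scalings, a replicate block, tissue scores as covariates and leaving out libraries.

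Groups came from titles, and chi-square comparisons of the 20 pairs within the control and melanoma groups found none agreeing within sampling noise (lowest 10.48 per gene). The comparison, the 30 gene lists and the 13 marker lists were chosen with earlier results of these data known. Leading genes were the 12 with the smallest p in each direction at a mean of at least 1 CPM, excluding clone and pseudogene names. In each list, up to 6 members with the smallest p under 0.05 could be named, of which the text gives most, and other members, such as Fkbp5 and Tsc22d3, were picked for their roles after their values were seen. A list is described by counts and its median, with no test. The result of 1 gene is not reported here.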

Additional observations from a re-analysis of the deposited data

Results flagged for a closer look

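Of 182 groups of 5 values of named genes, 19 held 1 mouse far from the other 4 by Dixon's criterion (a gap above 0.71 of the range), where chance flags about 1 in 20 groups. Genes are correlated within a library, so these are not 19 separate events, and the cause was not tested.

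Control replicate 4 was the outlying mouse in 10 of them. It was high for P2ry12 (33.1 CPM), Nfkbia (23.1 CPM), S100b (149 CPM), mt-Nd4l (5.49 CPM), mt-Nd2 (3170 CPM), mt-Nd6 (1310 CPM), Sdhc (107 CPM) and Aif1 (5.17 CPM), and low for Kdm3a (30.8 CPM) and Osmr (2.77 CPM).

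Melanoma replicate 4 was high for Bsg (441 CPM), Pkdcc (14.6 CPM), Gm2a (56.1 CPM) and Cd59a (7.93 CPM). Melanoma replicate 1 was high for Hif3a (25.1 CPM) and Plin4 (47.7 CPM), replicate 3 for Fosb (43.6 CPM) and replicate 5 for Pptc7 (69.1 CPM), and replicate 2 was low for Nsdhl (15.6 CPM).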

How the results depend on the processing

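The count of genes past an adjusted p of 0.05 was 0 in edgeR, 6 with DESeq2, 1 with limma voom and 3 on the 10 libraries alone (Mfsd2a, Sgk1 and Arrdc2), and 0 to 1 when single libraries were left out, the 1 being Sox18 without control replicate 2. Genes at an unadjusted p under 0.05 numbered 497 higher and 444 lower, 820 and 772 with no filter, 192 and 261 without melanoma replicates 1, 3 and 5 (an alternative chosen after seeing the data), and 333 to 583 and 360 to 699 without single libraries. The glucocorticoid count of 16 was 7 without those 3 mice and 15 to 17 without single libraries. The microglial count of 6 was 3 with tissue scores, 1 without the 3 mice and 3 to 7 without single libraries. The striatum count of 13 was 8 with voom and 0 with tissue scores or without the 3 mice.

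The replicate block gave 0 genes past the threshold, 481 higher and 420 lower at an unadjusted p under 0.05. Correlations of same-numbered deviations ran from -0.13 to 0.212, and 2 of 10 libraries correlated best with their own number, so the numbers do not pair the mice.

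Among 1923 alternative values of 92 named genes, 12 reversed. Without melanoma replicates 1, 3 and 5 these were Rarb (-0.0106), Mki67 (-0.0431), Cd4 (-0.30) and Gfap (0.0895), and Gfap was 0.0725 with tissue scores. Aif1 was 0.19 with voom, 0.0107 with the block, 0.14 with 1 surrogate variable, 0.22 without control replicate 4 (0.22 also without melanoma plus ICI replicate 1, also chosen after seeing the data), 0.03 without melanoma replicate 1, and 0.02 without melanoma replicate 4. Without single libraries Aif1 ran from -0.0759 to 0.22, and its lowest value in any alternative was -0.14 with tissue scores. The median of the endothelial activation list moved from 0.12 to 0.33 without control replicate 1. The cause was not tested. Counts near 0 limit genes such as Lcn2 and Cd4.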

Other observations

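Of 20 neurogenesis and proliferation genes 11 were higher in melanoma (median 0.08, which was 0.02 without control replicate 2 and -0.09 without melanoma replicates 1, 3 and 5), 3 of them at an unadjusted p under 0.05 (2.70% of all genes): Top2a, Ccnb1 and Mki67. Top2a, the topoisomerase of dividing cells, was at 0.745, 1.79, 1.28, 1.15 and 1.48 CPM in control and 3.03, 3.2, 6.41, 1.15 and 4.6 CPM in melanoma (log2 fold change 1.51, adjusted p = 0.656 in edgeR). Replicate 4 lay within the control range and replicate 3, the mouse with the highest striatum score, was highest. Ccnb1 averaged 0.31 ± 0.247 and 0.9003 ± 0.392 CPM, and Mki67 2.34 ± 1.14 and 4.81 ± 2.52 CPM. Without melanoma replicates 1, 3 and 5 the log2 fold changes were 0.75 for Top2a, 1.08 for Ccnb1 and -0.0431 for Mki67, against 1.51, 1.53 and 1.04 with them. Pcna went the other way, with summed counts of 4977 in control and 4623 in melanoma. Mcm2, with 686 and 780, and Cdk1, with 29 and 49, had higher counts in melanoma. Dcx, the marker of immature neurons, averaged 17.7 ± 5.01 and 23.1 ± 5.18 CPM, with overlap. Fabp7 was at 25.4, 11.8, 18.1, 26.9 and 13.2 CPM in control and 9.88, 8.19, 14, 10.6 and 11.1 CPM in melanoma, and higher in the tumour-bearing mice of the ICI arm (log2 fold change 0.77, difference 1.59, adjusted p = 0.346 in edgeR).

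Pigment cell genes were counted as follows. Summed over 5 libraries, control and melanoma held 74 and 67 counts of Pmel, 75 and 85 of Dct, 15 and 12 of Tyrp1, 10 and 7 of Tyr, and 12 and 12 of Mlana. Mitf, the melanocyte transcription factor, which the brain also expresses, had 1297 and 1206 counts. Oca2 had 524 and 198 counts, and its highest values, 10.7 and 6.73 CPM in control and 5.09 CPM in melanoma, were in libraries with the highest choroid plexus scores of their groups. The checkpoint receptor genes Pdcd1 (9 and 4 counts) and Ctla4 (11 and 20 counts) were near the floor in both groups, and Cd274, the PD-L1 gene, averaged 2.3 ± 0.37 and 2.02 ± 0.486 CPM.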
